A study of Mus musculus with 12 samples.

Results

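The glucocorticoid receptor, encoded by Nr3c1, and 8 genes known as its targets or as parts of its pathway were followed across 12 expression arrays of mouse fibroblasts. The 8 were Fkbp5, Tsc22d3, Sgk1, Dusp1, Mt1, Mt2, Hsd11b1 and Klf9. All probe sets that the platform annotation maps to exactly 1 of these 9 symbols were taken, which gave 21 of the 22690 probe sets on the array. The 9 are among 12393 genes with a probe set of their own. A probe set is the group of short probes that reads 1 transcript region, and each is described on its own because those of Nr3c1 went different ways. Nr3c1 carried 3, Klf9 7, Tsc22d3 3, Fkbp5 and Mt1 2 each, and Sgk1, Dusp1, Mt2 and Hsd11b1 1 each.

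The cells were embryonic fibroblasts (MEFs) knocked out for PPARγ, a nuclear receptor on which fat cell formation depends, and differentiated for 6 days. All 4 groups share that knockout and carry an introduced PPARγ. The untreated group and both ligand groups carry the wild-type form, and the mutant group carries S273A, in which alanine replaces a serine that can be phosphorylated. One ligand group received 1 µM rosiglitazone and the other 1 µM MRL24, both for 24 h. Rosiglitazone is a full agonist of PPARγ and MRL24 another ligand of it. The labels call the mutant arrays mutPPARgamma, and the series text names the substitution. They give no glucocorticoid dose, do not list what the differentiation medium held and name nothing that the untreated cells were given in place of a ligand. As far as they say, each form of PPARγ was in 1 set of cells, so the substitution and any other difference between those populations cannot be told apart. Each group had 3 arrays, and no label says that these came from separate cultures. The p-values below therefore measure the spread between arrays, which may be technical.

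The glucocorticoid receptor waits in the cytoplasm bound to heat shock proteins and cochaperones. Hormone releases it to the nucleus, where it binds paired half-sites in DNA and raises or lowers nearby genes. In fat cell precursors glucocorticoids help to start differentiation, and in mature fat the enzyme 11β-HSD1, encoded by Hsd11b1, regenerates active hormone inside the cell. Fkbp5 encodes a cochaperone that dampens the receptor, and Tsc22d3 encodes the leucine zipper protein GILZ. Sgk1 encodes a kinase, Dusp1 a phosphatase that switches off MAP kinases, Klf9 a transcription factor, and Mt1 and Mt2 the metal-binding metallothioneins, which lie side by side in the genome and also respond to zinc and other metals.

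Stretches upstream of annotated starts are shown for 3 genes whose values moved and whose letters hold a searched motif. They were taken from RefSeq's table for GRCm38.p6, which held windows for 8 of the 9 genes and none for Nr3c1. Each is the 250 bases before a start, 5′ to 3′ on the gene's strand. Capitals mark the full glucocorticoid response element in Sgk1, which is the half-site AGAACA, any 3 bases and TGTTCT. In Mt2 they mark metal response element cores, TGCACNC or TGCGCNC on either strand, and in Dusp1 the cyclic AMP response element TGACGTCA. The Sgk1 stretch is chr10:21993640-21993889 (+), the Mt2 stretch chr8:94172368-94172617 (+) and the Dusp1 stretch chr17:26508473-26508722 (-).
Sgk1: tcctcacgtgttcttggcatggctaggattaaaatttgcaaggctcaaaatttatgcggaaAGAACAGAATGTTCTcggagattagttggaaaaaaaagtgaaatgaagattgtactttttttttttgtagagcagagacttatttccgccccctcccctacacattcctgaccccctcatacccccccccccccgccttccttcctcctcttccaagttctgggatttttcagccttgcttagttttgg
Mt2: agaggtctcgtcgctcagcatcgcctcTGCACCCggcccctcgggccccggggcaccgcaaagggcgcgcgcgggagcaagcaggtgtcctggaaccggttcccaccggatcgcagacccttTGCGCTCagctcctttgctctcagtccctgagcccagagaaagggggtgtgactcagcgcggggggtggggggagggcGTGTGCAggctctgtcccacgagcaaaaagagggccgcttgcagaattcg
Dusp1: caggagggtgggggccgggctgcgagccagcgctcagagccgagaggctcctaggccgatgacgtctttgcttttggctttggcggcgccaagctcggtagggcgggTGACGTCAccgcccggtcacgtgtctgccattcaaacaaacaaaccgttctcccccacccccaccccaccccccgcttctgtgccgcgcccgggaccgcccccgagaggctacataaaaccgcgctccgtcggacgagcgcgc

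The full element in the Sgk1 stretch begins 189 bases before that start. It stood in 3 of 32851 such windows of all genes, and Sgk1 has 6 windows, of which this was the 1 that held it. The half-site AGAACA, which every full element also contains, stood in 16.1% of all windows. Among the members it was found in 3 Sgk1 windows and 1 of 3 Tsc22d3 windows. The Mt2 stretch held 3 metal response element cores, and at least 3 stood in 1.26% of all windows. Mt1 and Hsd11b1 held 1 core each, and at least 1 stood in 21.4% of all windows. The cyclic AMP response element of Dusp1 stood in 1.55% of them. The E-box CACGTG, found in 6.02% of all windows, occurred once in Dusp1, once in Fkbp5 and in the printed Sgk1 window, where it overlaps a half-site. The TATA box TATAAA stood in 12.4% of all windows and in 2 of the 6 Sgk1 windows. A match shows that these letters are there and nothing about binding.

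Values were deposited as intensity on a linear scale, and array medians lay between 297 and 315. Folds and log2 changes are of log2(intensity + 16), and levels are compared within a probe set only. A probe set was tested where its mean reached the 30th percentile, an intensity of 101, which kept 20 of the 21 and left out 1452723_at of Klf9. A change is called rose or fell where limma's test over all 15838 probe sets gave a Benjamini-Hochberg adjusted p under 0.05. Untreated wild-type replicate 2 stood apart, with a first principal component score of -24.96 against -7.15 to 11.72 on the other arrays. Every comparison with untreated cells uses it. Adipocyte markers were summed by the brightest probe set of each of 8 genes, and Adipoq, Cidec and Lep lay below the filter. Their sum ran from 12187 to 14095 untreated, from 13131 to 14264 with S273A, from 19183 to 19339 with MRL24 and from 30235 to 30553 with rosiglitazone. Of the 5 tested, 2 rose with rosiglitazone and 3 with MRL24, where 5.03% and 5.76% of all probe sets rose. With S273A limma called none of the 5, and 2 had an unadjusted p under 0.05. Fabp4 made up most of the sum, with means of 9509 untreated and 25153 with rosiglitazone, while those of Pparg were 904 and 834 and those of Cebpa 313 and 351. The sum of 8 fibroblast markers ran from 57514 to 64663 untreated and from 49753 to 54777 with S273A. With rosiglitazone it ran from 58313 to 60333 and with MRL24 from 62435 to 65185. Lum lay below the filter. Of the 7 tested, 6 fell with S273A, 2 with rosiglitazone and 1 with MRL24, where 5.13%, 4.21% and 2.67% of all probe sets fell. Between the ligands 2 were lower with rosiglitazone, where 0.979% of all were. Among macrophage markers Ptprc, Lyz2 and Itgam lay below the filter, and 1 of the 5 tested rose with S273A. Among endothelial markers Pecam1 and Tie1 lay below it, and 1 of the 3 tested rose with S273A. Of all probe sets 2.58% rose with S273A. The part that these shifts play in the results below was not tested.

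With S273A, 10 of the 20 tested member probe sets were called, 5 higher and 5 lower, from 6 of the 9 genes. The count was 5 of 20 without S273A replicate 2, 2 of 9 by the brightest set of each gene and 4 of 9 by the mean of its sets. Of all probe sets tested, 7.71% were called, 2.58% higher and 5.13% lower. The S273A and untreated arrays did not overlap for 11 of the 20, where they did not for 23.2% of all probe sets. With rosiglitazone 5 of 20 were called, 3 higher and 2 lower, where 9.24% of all probe sets were, 5.03% higher and 4.21% lower. Arrays did not overlap for 9 of the 20, against 26.5% of all. With MRL24 3 of 20 were called, 2 higher and 1 lower, where 8.44% of all probe sets were, 5.76% higher and 2.67% lower. Arrays did not overlap for 9 of the 20, against 30.3% of all. The MRL24 count was 2 of 20 without untreated replicate 2 or MRL24 replicate 1 or 2, 1 of 20 without MRL24 replicate 3 and 1 of 9 by the brightest set. It was 5 of 20 without untreated replicate 1, 4 of 20 without untreated replicate 3 and 4 of 9 by the mean of a gene's sets. With all arrays set to the same median, the calls over all probe sets turned from 797 higher and 666 lower to 695 and 857 with rosiglitazone, and from 913 and 423 to 632 and 834 with MRL24. Between rosiglitazone and MRL24 1 of 20 was called, lower with rosiglitazone, where 2.25% of all probe sets were called and 0.979% lower. The median log2 change of the 20 was -0.02 with S273A, 0.003 with rosiglitazone and 0.04 with MRL24, against -0.004, 0.004 and 0.02 over all probe sets. Probe sets of 1 gene share a target, so these counts are not of independent genes. The 3 comparisons with untreated cells share their control arrays.

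**Figure D1:**
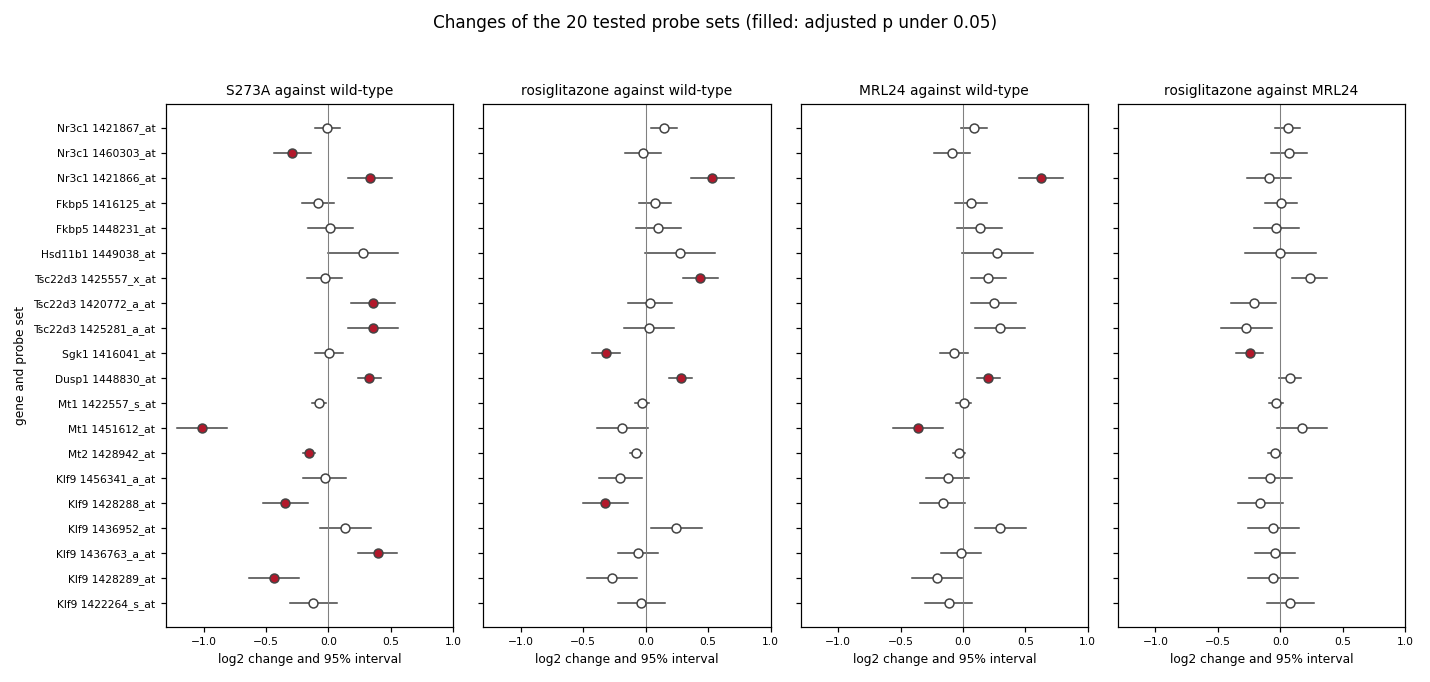
Log2 change with its 95% interval (x axis) of each of the 20 tested probe sets (y axis) in the 4 comparisons, filled where the adjusted p was under 0.05. The probe set 1421866_at of Nr3c1 and the 1 of Dusp1 lie above 0 in all 3 comparisons with untreated cells, and 1451612_at of Mt1 lies lowest with S273A.

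Nr3c1 itself gave a different answer from each probe set. By 1421866_at the receptor rose in all 3 groups. By 1460303_at it fell with S273A, and by 1421867_at no change was called. The gene is on the list that the study's paper linked to Ser273, as recalled from that work, and the list was chosen on these samples. A rise here is thus not independent evidence.

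By 1421866_at the untreated arrays read 1162, 915 and 1155, the S273A arrays 1296, 1421 and 1352, the rosiglitazone arrays 1537, 1648 and 1494, and the MRL24 arrays 1675, 1558 and 1758. Every array of the other groups lay above the 3 untreated ones, S273A lay below both ligand groups, and the ligand groups overlapped. With S273A the log2 change was 0.34 (SE 0.08, adjusted p = 0.0205). Rosiglitazone gave 0.53 (SE 0.08, adjusted p = 6.38e-04), a 1.45-fold rise, and MRL24 gave 0.63 (SE 0.08, adjusted p = 8.62e-04), a 1.54-fold rise. The lowest array is the one that stands apart. Without it the changes were 0.22 (adjusted p = 0.0490), 0.42 (6.05e-04) and 0.51 (5.28e-04). The call with S273A was lost without S273A replicate 2 (0.0880) or 3 (0.0605) and in a fit to the 2 groups alone (0.0912).

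By 1460303_at the untreated arrays read 1814, 1853 and 1731 and the S273A arrays 1620, 1426 and 1374, with no overlap. This was a fall of 1.22-fold (log2 change -0.29, SE 0.07, adjusted p = 0.0165), and it was lost without S273A replicate 2 (0.0691) or 3 (0.0793) and in the fit to the 2 groups (0.0719). Rosiglitazone arrays ran from 1650 to 1884 and MRL24 arrays from 1644 to 1788, both overlapping the untreated range. Their changes were -0.02 (95% interval -0.16 to 0.13) and -0.09 (-0.23 to 0.06).

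By 1421867_at untreated cells read 2552 ± 54.6 and S273A cells 2538 ± 65.3 (intensity, mean ± SD, n = 3), a change of -0.01 (-0.11 to 0.10). Rosiglitazone arrays read 2739, 2913 and 2844 and MRL24 arrays 2621, 2675 and 2864, and all 6 lay above the untreated range of 2489 to 2592. The changes of 0.15 (SE 0.05, adjusted p = 0.0661) and 0.09 (SE 0.05, adjusted p = 0.249) were not called. The first passed after quantile normalization (0.0385) and with array weights (0.0423).

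The disagreement was present within single arrays. The log2 ratio of 1460303_at to 1421866_at lay between 0.58 and 1.01 on the untreated arrays, between 0.01 and 0.32 with S273A, between 0.002 and 0.33 with rosiglitazone and between -0.10 and 0.20 with MRL24. The 2 probe sets thus did not shift equally in each of the 3 groups, and the untreated arrays lay above all others in this ratio. The mean of the 3 probe sets gave 0.01 with S273A (adjusted p = 0.897), 0.22 with rosiglitazone (0.00356) and 0.21 with MRL24 (0.0116). Where on the transcript each set lies is not analysed here.

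The other genes whose pattern over the 12 arrays was most like 1421866_at were Ptprs, a receptor tyrosine phosphatase (Pearson r = 0.983), Sec24b, a vesicle coat subunit (0.978), and Tgoln1, a protein of the trans-Golgi network (0.974). Ptprs went from a mean of 1423 untreated to 2106 with S273A, 2930 with rosiglitazone and 3255 with MRL24. For 1460303_at they were Dynll2 (0.944), Nab2 (0.928) and the proliferation marker Mki67 (0.909), and for 1421867_at Npr2 (0.911), Col6a2 (0.904) and Prnp (0.903). These 3 sets of neighbours have no gene in common. The points share arrays and groups, so the values of r are a description.

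**Figure D2:**
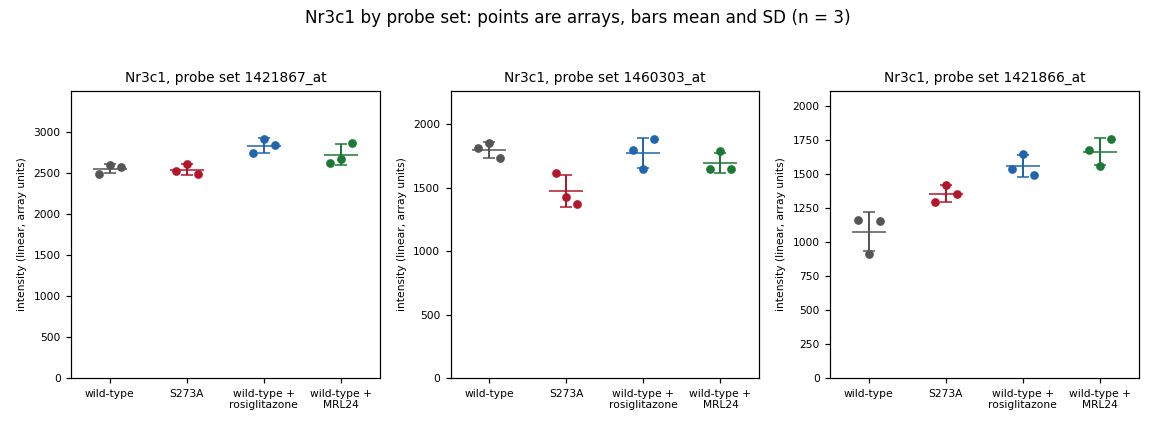
Intensity (linear, y axis from 0) of the 3 Nr3c1 probe sets in the 4 groups, with points for arrays and bars for mean and SD of 3. The panel of 1421866_at shows untreated arrays lowest, from 915 to 1162, while that of 1460303_at shows S273A arrays lowest, from 1374 to 1620.

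Fkbp5, which limits hormone binding by the receptor and is among its most hormone-responsive targets in many tissues, was not called in any comparison by either probe set. By 1416125_at the means were 1239 ± 66.3 untreated, 1170 ± 72.6 with S273A, 1304 ± 40.3 with rosiglitazone and 1298 ± 21.0 with MRL24 (n = 3). Ordered by mean, from S273A through untreated and MRL24 to rosiglitazone, each group overlapped the next. The S273A arrays, from 1086 to 1219, lay below all MRL24 and rosiglitazone arrays. The log2 changes against untreated cells were -0.08 (95% interval -0.21 to 0.05), 0.07 (-0.06 to 0.20) and 0.07 (-0.06 to 0.20). By 1448231_at they were 0.02 (-0.16 to 0.19), 0.10 (-0.08 to 0.28) and 0.13 (-0.05 to 0.31), and none passed under any alternative. The lowest of these unadjusted p-values from limma was 0.133. Genes most like 1416125_at were Lysmd3 (r = 0.941), Morf4l2 (0.941) and Galnt1 (0.931).

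Hsd11b1, the enzyme that makes active glucocorticoid from its inert form, also had no call. Untreated arrays read 347, 235 and 298, S273A arrays 420, 311 and 341, rosiglitazone arrays 370, 329 and 366, and MRL24 arrays 308, 375 and 384. The untreated group had the lowest mean, and it overlapped each of the others. The changes were 0.28 with S273A, 0.28 with rosiglitazone and 0.27 with MRL24, with an SE of 0.13 and adjusted p of 0.238, 0.218 and 0.204. Unadjusted, limma gave 0.0549, 0.0554 and 0.0564. The lowest array was again untreated replicate 2.

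Tsc22d3 split into 2 patterns. By 1420772_a_at and 1425281_a_at the gene rose with S273A, and by 1425557_x_at it rose with rosiglitazone. In the array maker's naming, _a marks probes shared by transcripts of 1 gene, and _x a set with some probes that can match other sequences. The gene is known to make several GILZ isoforms from separate starts.

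By 1420772_a_at the untreated arrays read 387, 392 and 442, the rosiglitazone arrays 420, 434 and 397, the MRL24 arrays 509, 478 and 468, and the S273A arrays 514, 585 and 481. S273A and MRL24 arrays lay above all untreated and rosiglitazone arrays, and they overlapped each other. The change was 0.36 with S273A (SE 0.08, adjusted p = 0.0158), a 1.28-fold rise, 0.03 with rosiglitazone and 0.25 with MRL24 (SE 0.08, adjusted p = 0.0784). By 1425281_a_at the untreated arrays read 373, 287 and 343, the S273A arrays 427, 475 and 390, the rosiglitazone arrays 348, 333 and 333, and the MRL24 arrays 415, 411 and 410. The order of the groups was the same. The change was likewise 0.36 with S273A (SE 0.10, adjusted p = 0.0313), 0.03 with rosiglitazone and 0.30 with MRL24 (SE 0.10, adjusted p = 0.0634). Both S273A calls depended on single arrays. The first was lost without S273A replicate 2 (0.0856) or untreated replicate 1 (0.0551) and in the fit to the 2 groups (0.0812). The other was lost without untreated replicate 2 (0.108) or S273A replicate 1 (0.0678) or 2 (0.143), with no filter (0.0638), with array weights (0.0540) and in that fit (0.132). The MRL24 values were called without untreated replicate 3 for the first set (0.0429) and without replicate 1 for the other (0.0274).

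By 1425557_x_at the untreated arrays read 672, 684 and 693, the S273A arrays 651, 657 and 697, the MRL24 arrays 846, 800 and 722, and the rosiglitazone arrays 923, 926 and 941. The groups ordered from S273A and untreated, which overlapped, through MRL24 to rosiglitazone, which lay apart. Rosiglitazone gave a 1.35-fold rise (log2 change 0.44, SE 0.07, adjusted p = 4.86e-04) that held under all 22 alternatives with a value. MRL24 gave 0.20 (SE 0.07, adjusted p = 0.0676) and S273A -0.03 (95% interval -0.17 to 0.11). The pattern most like it was that of Pde1b, a cyclic nucleotide phosphodiesterase (r = 0.962), followed by both Fabp4 probe sets (0.958 and 0.952), which read the fatty acid carrier of fat cells and a classic PPARγ target. The mean of the 3 Tsc22d3 probe sets gave 0.23 with S273A (adjusted p = 0.0449), 0.17 with rosiglitazone (0.131) and 0.25 with MRL24 (0.0387).

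Sgk1, a kinase with the full element in 1 of its 6 windows, was lower with rosiglitazone. Whether the element plays a part was not tested. Untreated arrays read 3869, 3864 and 3601, S273A arrays 3466, 3932 and 3987, and MRL24 arrays 3623, 3553 and 3607, while rosiglitazone arrays read 3047, 3037 and 2998. The rosiglitazone arrays lay below all others, and the other 3 groups overlapped. Against untreated cells the fall was 1.25-fold (log2 change -0.32, SE 0.05, adjusted p = 0.00110), and all 22 alternatives kept it. The change was 0.004 with S273A (-0.11 to 0.12) and -0.07 with MRL24 (-0.18 to 0.04).

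Sgk1 was also the member that separated the ligands at the same dose and time. Its level was 1.19-fold lower with rosiglitazone than with MRL24 (log2 difference -0.25, SE 0.05, adjusted p = 0.0192). This call was lost without any 1 of the 6 ligand arrays (adjusted p from 0.0555 to 0.0927), while the difference stayed between -0.22 and -0.25. For Tsc22d3 the difference was 0.23 by 1425557_x_at (adjusted p = 0.0779) and -0.21 and -0.27 by 1420772_a_at and 1425281_a_at (0.233 and 0.169). The 2 ligand groups did not overlap for any of these 3 sets. Array weights gave a call to the first (0.0273) and the last (0.0403), and the last was also called in a fit to the 2 ligand groups (0.0465), the first without untreated replicate 2 (0.0446). For Nr3c1 the ligands differed by -0.09 (95% interval -0.27 to 0.08) by 1421866_at, and for Hsd11b1 by 0.001 (-0.28 to 0.28). Ligand groups did not overlap for 7 of the 20 members, where 25.9% of all probe sets did not.

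Dusp1, the MAP kinase phosphatase, rose in all 3 groups. The untreated arrays read 5095, 4936 and 4946, the MRL24 arrays 5821, 5509 and 5923, the rosiglitazone arrays 6004, 6250 and 5960, and the S273A arrays 6090, 6600 and 6123. Every array of the 3 groups lay above all untreated arrays. S273A gave a 1.25-fold rise (log2 change 0.33, SE 0.04, adjusted p = 2.22e-04), rosiglitazone a 1.22-fold rise (0.28, SE 0.04, adjusted p = 5.67e-04) and MRL24 a 1.15-fold rise (0.20, SE 0.04, adjusted p = 0.0116). The last was lost without MRL24 replicate 3 (0.0662), and the first 2 held under every alternative run.

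**Figure D3:**
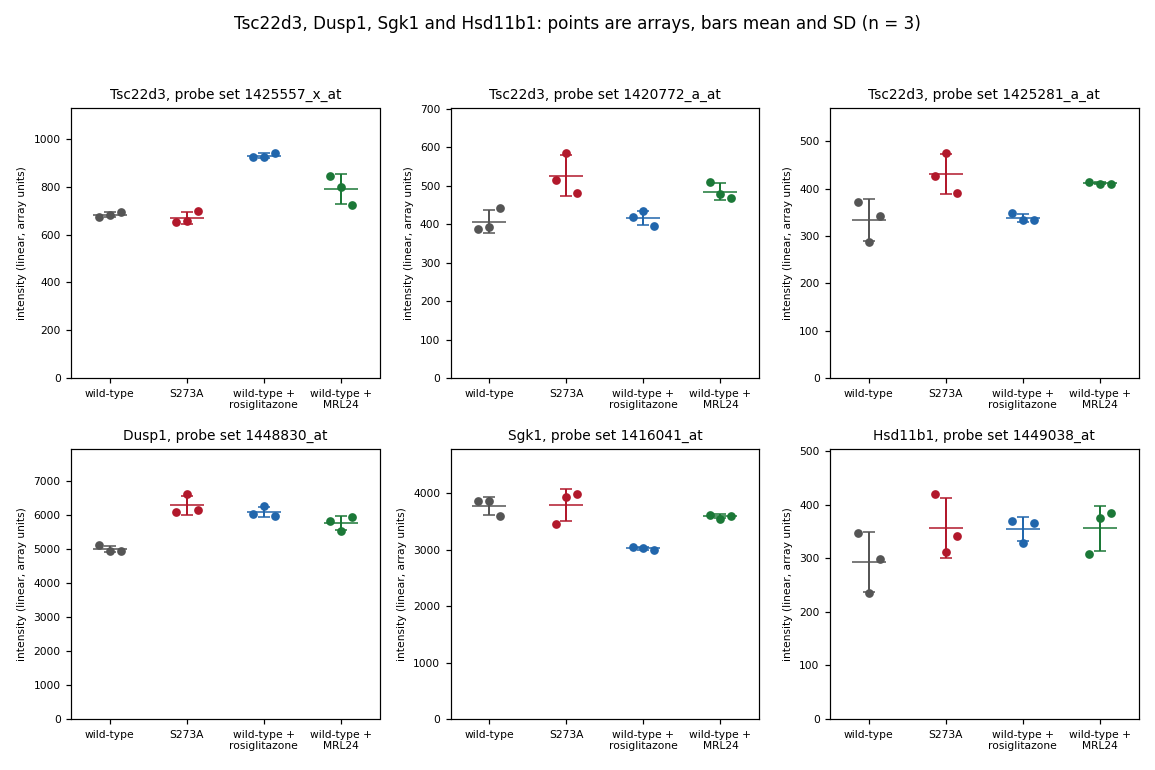
Intensity (linear, y axes from 0) of the Tsc22d3, Dusp1, Sgk1 and Hsd11b1 probe sets in the 4 groups, with points for arrays and bars for mean and SD of 3. Rosiglitazone arrays are highest for 1425557_x_at of Tsc22d3, from 923 to 941, and lowest for Sgk1, from 2998 to 3047, while untreated arrays are lowest for Dusp1.

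With S273A the metallothioneins fell by 1451612_at of Mt1 and by the Mt2 set, while 1422557_s_at of Mt1 was not called. The probe set 1451612_at of Mt1 read 249, 264 and 277 untreated, 119, 125 and 123 with S273A, 220, 235 and 234 with rosiglitazone and 201, 202 and 202 with MRL24. No group overlapped another, and the order ran from S273A through MRL24 and rosiglitazone to untreated cells. S273A gave a 2.02-fold fall (log2 change -1.01, SE 0.10, adjusted p = 9.28e-06), the largest change among the members, and all 20 alternatives with a value kept it. The S273A mean of 122 lay near the filter at 101. MRL24 gave -0.36 (SE 0.10, adjusted p = 0.0310), which was lost without untreated replicate 2 (0.0951) or 3 (0.0651), without MRL24 replicate 1 (0.0791), 2 (0.0907) or 3 (0.0990) and in the fit to the 2 groups (0.0768). Rosiglitazone gave -0.19 (SE 0.10, adjusted p = 0.244).

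Mt2 by its 1 probe set read 27230, 27229 and 27422 untreated and 24490, 24976 and 24006 with S273A, with no overlap. This 1.11-fold fall (log2 change -0.16, SE 0.02, adjusted p = 8.20e-04) was kept under all 22 alternatives. Rosiglitazone arrays read 26009, 25878 and 25682 and MRL24 arrays 26844, 26838 and 26418, all below the untreated arrays. Their changes of -0.08 (SE 0.02, adjusted p = 0.0508) and -0.03 (SE 0.02, adjusted p = 0.422) were not called. The first was called under 7 alternatives, among them the same median for all arrays (0.0140), quantile normalization (0.00701) and leaving out untreated replicate 2 (0.0463).

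The other Mt1 probe set, 1422557_s_at, ran from 25380 to 26595 untreated and from 24222 to 25230 with S273A, and its change of -0.08 (SE 0.03, adjusted p = 0.119) was not called. It was called after quantile normalization (0.0114) and without untreated replicate 2 (0.0333). The same set gave -0.03 with rosiglitazone and 0.005 with MRL24, neither called, and both ligand groups overlapped the untreated one. In the maker's naming _s marks probes shared by several transcripts, so Mt1 and its near copies cannot be told apart there. This set and that of Mt2 lay near the array maxima of 31882 to 33624, where an intensity may understate a change.

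The patterns most like Mt2 were those of the urea transporter Slc14a1 (r = 0.979), the small GTPase Rhoj (0.970) and 2610507B11Rik (0.967). Slc14a1 had means of 1767 untreated, 1124 with S273A, 1449 with rosiglitazone and 1635 with MRL24. Each of the 3 had its lowest mean with S273A and its highest untreated, the same order as Mt2. They were picked for their correlation with Mt2 over these arrays, so the shared order is no separate evidence.

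**Figure D4:**
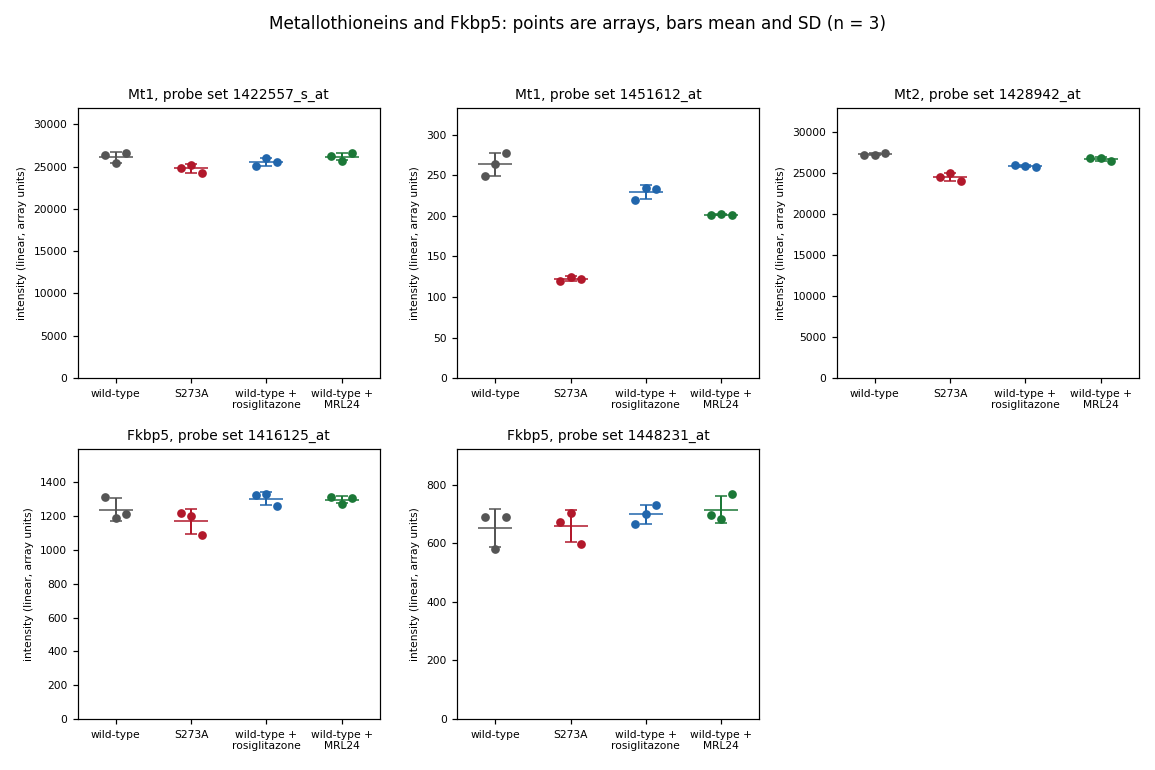
Intensity (linear, y axes from 0) of the Mt1, Mt2 and Fkbp5 probe sets in the 4 groups, with points for arrays and bars for mean and SD of 3. The S273A arrays of 1451612_at of Mt1 lie between 119 and 125 and those of untreated cells between 249 and 277. The 2 bright metallothionein sets move by little, and in both Fkbp5 sets each group overlaps the untreated one.

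Klf9, a transcription factor that glucocorticoids induce in many cells, was read by 7 probe sets, and with S273A 2 of them fell and 1 rose. By 1428289_at the untreated arrays read 1069, 1081 and 956 and the S273A arrays 667, 859 and 768, a 1.35-fold fall (log2 change -0.43, SE 0.09, adjusted p = 0.00948) kept under all 21 alternatives with a value. By 1428288_at they read 2495, 2668 and 2694 against 1985, 2038 and 2152, a 1.27-fold fall (-0.35, SE 0.09, adjusted p = 0.0203). That call was lost without untreated replicate 3 (0.0548) or S273A replicate 1 (0.0666) or 2 (0.0683) and with no filter (0.0547). By 1436763_a_at the direction was opposite: 914, 842 and 787 untreated and 1152, 1177 and 1028 with S273A, a 1.31-fold rise (0.39, SE 0.08, adjusted p = 0.00402) kept under all 21 alternatives. In all 3 sets the groups did not overlap.

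With rosiglitazone only 1428288_at was called among the Klf9 sets, at 2142, 2120 and 2004 (log2 change -0.32, SE 0.09, adjusted p = 0.0248). The call was lost under 7 alternatives: without untreated replicate 2 (0.0578) or 3 (0.0619), without rosiglitazone replicate 1 (0.0529), 2 (0.0687) or 3 (0.0864), with no filter (0.0640) and with array weights (0.0525). By 1428289_at rosiglitazone gave -0.27 (SE 0.09, adjusted p = 0.0870). With MRL24 no Klf9 set was called, and 1428288_at scattered from 1976 to 2741 over its 3 arrays. The highest MRL24 change among the tested Klf9 sets was 0.30 by 1436952_at (SE 0.10, adjusted p = 0.0640), where the arrays did not overlap with the untreated ones. It was called without untreated replicate 1 (0.0207), as was the change of 0.24 with rosiglitazone (0.0409).

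The set 1456341_a_at was not called in any comparison, with changes of -0.03, -0.20 and -0.12 against untreated cells. It was called with both ligands without untreated replicate 3 (0.0111 and 0.0484). The set 1422264_s_at had means between 448 and 488, and 1452723_at, left out by the filter, had means between 68.3 and 97.0 with each group overlapping the untreated one. Genes most like 1456341_a_at were Dhdds (r = 0.869), Myo6 (0.856) and Rnf183 (0.849), a weaker likeness than for any other member compared. The mean of all 7 Klf9 sets gave -0.07 with S273A (adjusted p = 0.616) and -0.07 (0.549) and 0.001 (0.993) with rosiglitazone and MRL24.

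**Figure D5:**
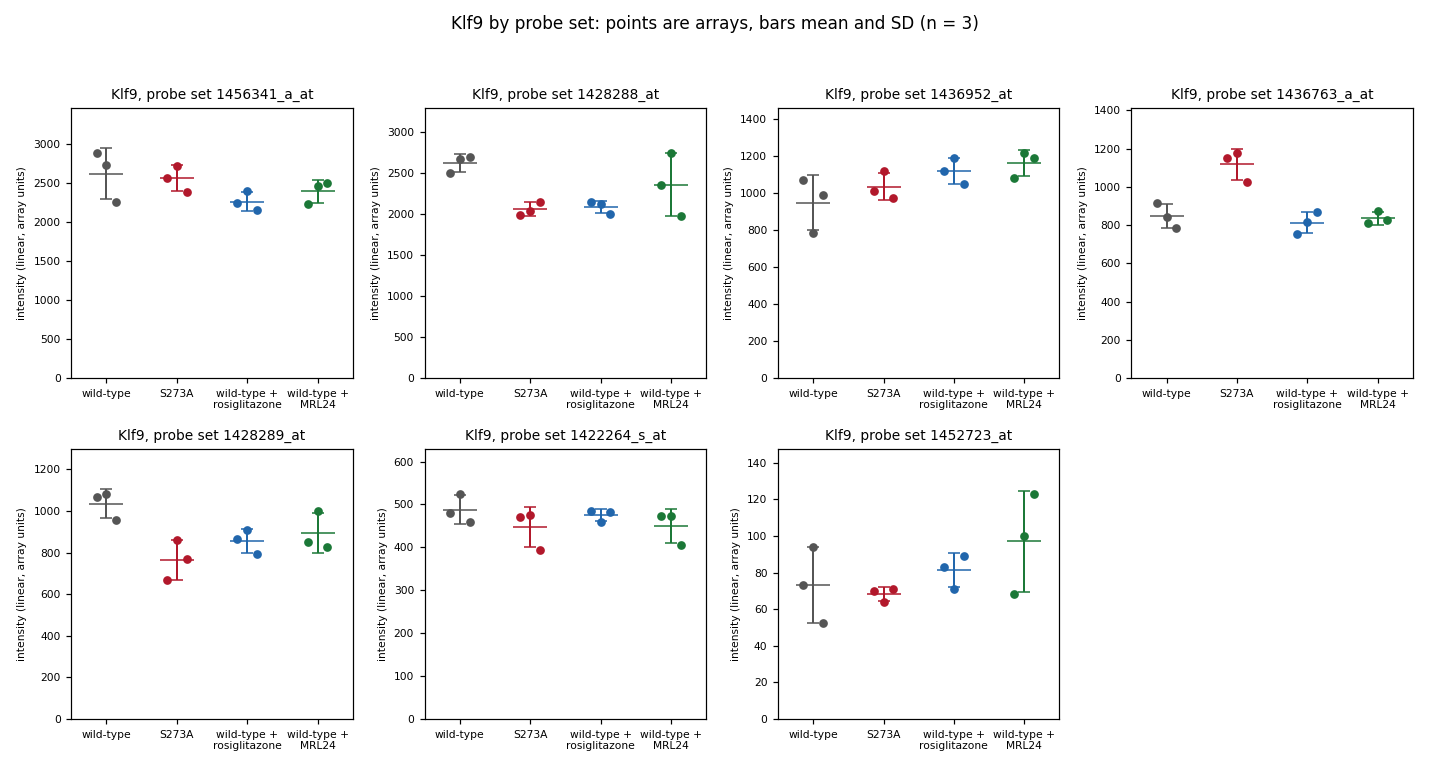
Intensity (linear, y axes from 0) of the 7 Klf9 probe sets in the 4 groups, with points for arrays and bars for mean and SD of 3. S273A arrays lie below untreated arrays for 1428288_at and 1428289_at and above them for 1436763_a_at, from 1028 to 1177 against 787 to 914.

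The rest of the pathway was read from 11 lists with 125 genes, of which 93 were tested by 158 probe sets. Of those sets 8 rose and 19 fell with S273A, 10 rose and 10 fell with rosiglitazone, and 9 rose and 4 fell with MRL24. That is 17.1%, 12.7% and 8.23% of them, against the 7.71%, 9.24% and 8.44% of all probe sets. Between the ligands 5 were higher and 5 lower with rosiglitazone, which is 6.33% against 2.25% of all.

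Partners of the receptor protein gave 1 call. Of 9 tested chaperone and cochaperone genes 1 rose with rosiglitazone, by 1 of 16 probe sets, where 5.03% of all rose. This was Hsp90aa1, a stress-induced HSP90 that holds the receptor ready for hormone, by 0.16 (SE 0.05) from 7000 ± 247 to 7835 ± 241. Its 2 other sets were at 0.04 and 0.08. By limma none was called with S273A, with MRL24 or between the ligands, where 5, 3 and 0 of the 16 had an unadjusted p under 0.05. Of 8 tested coregulator genes, read by 15 probe sets, limma called none in any comparison, and 5, 3, 3 and 1 sets had an unadjusted p under 0.05 with S273A, rosiglitazone, MRL24 and between the ligands. Among genes that handle steroids, Abcb1a, a drug efflux pump that also exports glucocorticoids, fell by 0.41 with S273A (SE 0.07), from 608 ± 31.1 to 455 ± 35.7. It rose by 0.58 with rosiglitazone (SE 0.07), to 919 ± 28.6, and was 0.40 higher with rosiglitazone than with MRL24. Its second probe set had the same signs (-0.29, 0.42 and 0.36).

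Of 26 tested further genes that glucocorticoids induce, 4 rose and 5 fell with S273A, 5 rose and 5 fell with rosiglitazone, and 4 rose and 2 fell with MRL24. The median change of their 50 probe sets was -0.05, -0.004 and 0.01. Errfi1, an inhibitor of the EGF receptor, fell with S273A from 7192 ± 166 to 4816 ± 207 (-0.58, SE 0.04), with its other set at -0.25. Glul, glutamine synthetase, rose with S273A by 0.43 (SE 0.08) and with MRL24 by 0.26 (SE 0.08), with its other set at -0.05 and 0.01. Foxo3, a transcription factor, rose by 0.79 with S273A and 0.57 with MRL24 by 1 set, with its 2 other sets at -0.18 to -0.22. Angptl4 and Pdk4, which are also PPARγ targets, rose with rosiglitazone by 1.42 and 0.93. Fbxo32 fell with rosiglitazone by 0.87 (SE 0.20), to a mean of 104 near the filter, with its other set at -0.42. Lcn2, an acute-phase lipocalin, fell by 0.54 with rosiglitazone. Angptl4 also rose with MRL24 (0.47, SE 0.05) and fell with S273A (-0.44, SE 0.05). Cebpd, an early adipogenic factor, was 0.38 lower with rosiglitazone than with MRL24, although its other set was 0.19 higher.

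Of 9 tested genes that glucocorticoids repress, 2 rose and 1 fell with S273A, 1 rose and 1 fell with rosiglitazone, and 2 rose and 1 fell with MRL24. Ccl2, a monocyte chemokine, fell in all 3 (-0.19, -0.34 and -0.19, SE 0.04 each). Mmp13, a collagenase, rose with rosiglitazone (0.59, SE 0.06) and with MRL24 (0.56, SE 0.06). Ptgs2, an inducible cyclooxygenase, rose with S273A (0.33, SE 0.06) and MRL24 (0.28, SE 0.06), with its other set at -0.03 and 0.05.

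Relatives of single members were read too. Of 7 tested MAP kinase phosphatases other than Dusp1, 3 fell with S273A and none rose: Dusp10 (-0.46, SE 0.09), Dusp6 (-0.34, SE 0.07) and Dusp14 (-0.19, SE 0.05), with another set of Dusp10 at -0.05. By probe set 3 of 9 fell, where 5.13% of all did. With rosiglitazone 1 fell, Dusp10 (-0.37, SE 0.09), by 1 of 9 sets, where 4.21% of all fell. With MRL24 limma called none, where 3 of 9 sets had an unadjusted p under 0.05. Immediate-early genes, which share fast induction with Dusp1, gave 1 higher and 2 lower of 12 with S273A, with Atf3 at 0.40, Egr1 at -0.29 and Egr2 at -0.69. By probe set 1 of 15 rose and 3 fell, where 2.58% and 5.13% of all did. Rosiglitazone gave 1 gene higher and 2 lower, with Btg2 at 0.26, Egr1 at -0.16 and Egr2 at -0.33. The other Btg2 set was at 0.03. By probe set 1 of 15 rose and 2 fell, where 5.03% and 4.21% of all did. MRL24 gave 1 lower, Btg2 by that other set (-0.35), with the first set at 0.07. By probe set 1 of 15 fell, where 2.67% of all did. Beside the falls by 1451612_at of Mt1 and the Mt2 set, 1 of 4 tested genes of the metal list rose with S273A. This was the heme oxygenase Hmox1 (0.25, SE 0.05). By probe set 1 of 6 rose, where 2.58% of all did. With either ligand limma called none, where 1 of 6 sets had an unadjusted p under 0.05 with each. Of 8 other KLF genes 5 fell with S273A and none rose, with Klf4 at -0.35, Klf7 at -0.35, Klf6 at -0.34 and Klf3 at -0.29. By probe set 5 of 19 fell, where 5.13% of all did. Further sets of Klf6 were at 0.08 and 0.30, those of Klf7 between -0.26 and 0.10 and those of Klf3 between -0.40 and 0.07. With rosiglitazone 1 fell, Klf4 (-0.49, SE 0.09), and with MRL24 1 rose, Klf6 by another set (0.38, SE 0.09). Each was 1 of 19 sets, where 4.21% of all fell with rosiglitazone and 5.76% rose with MRL24. By limma none of the 6 sets of TSC22 relatives was called, and 1, with MRL24, had an unadjusted p under 0.05. Among the SGK and AKT kinases Akt2 rose with MRL24 by 1 of its sets (0.56, SE 0.13), with the other at -0.05. That was 1 of 8 sets, where 5.76% of all rose.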

How the data were processed

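The deposited table gave intensity on a linear scale for 22690 probe sets on 12 arrays, made by the authors; the normalization and software are not given in the sources used here, and per the labels' protocols the RNA was labelled with biotin. Probe sets were named through the platform annotation (20380 with 1 symbol, 691 with several, 1555 with none), and 64 controls were left out. Values were used as log2(intensity + 16), which understates changes of dim probe sets.

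Probe sets with a mean at or above the 30th percentile were fitted in 1 model over all 12 arrays with limma 3.58.1 in R 4.3.3 (lmFit, eBayes with trend; 8 residual degrees of freedom), and p-values were adjusted over all 15838. The procedure was tested on simulated data. Tables and figures used python 3.11.15, pandas 2.3.3 and matplotlib 3.10.9. With 3 arrays in each group the smallest exact permutation p is 0.1. No value column was left unused. Replicate numbers do not pair the arrays (residual correlation over 0.1 in 1 of 18 pairs), so no block was used.

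The members, lists and motifs were chosen with earlier results of these data known. Named were all member probe sets, up to 4 called genes of each list per comparison (fewer are described) and the 3 genes most correlated with chosen members. The number of arrays limits the precision.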

Additional observations from a re-analysis of the deposited data

How the results depend on the processing

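Of 19 called member results, 10 kept their call and direction under every alternative with a value, and 9 lost it under some; no called value changed sign. Alternatives were fixed with earlier results known. The count of called probe sets with S273A (1221), rosiglitazone (1463), MRL24 (1336) and between the ligands (356) became 675, 739, 508 and 231 with the brightest probe set per gene, and 625, 770 and 501 for the first 3 with the mean of a gene's sets, where fewer features are tested. It became 415, 734, 415 and 1006 in fits to the 2 groups alone, 727 for MRL24 with no filter and 1105 between the ligands with array weights. The cause of these last shifts was not tested. Leaving out single arrays gave 723 to 1227, 752 to 1611, 322 to 1784 and 160 to 865: the lowest for S273A came without S273A replicate 3, for rosiglitazone without rosiglitazone replicate 2 and for MRL24 without MRL24 replicate 3, and the highest between the ligands without untreated replicate 2. Member counts (10, 5, 3 and 1) became 2, 3, 1 and 1 by brightest set and 4, 3, 4 and 1 by mean. They became 6 with S273A and 2 between the ligands in fits to the 2 groups, and 3 between the ligands with array weights. Leaving out single arrays gave 5 to 10, 4 to 6, 1 to 5 and 0 to 2, with 5 for S273A without its replicate 2 and 1 for MRL24 without its replicate 3. The split of MRL24 calls, 913 higher and 423 lower, became 632 and 834 with arrays set to the same median, and 772 and 614 after quantile normalization. That of rosiglitazone calls, 797 and 666, became 695 and 857 with the same median, and the split between the ligands, 201 and 155, became 244 and 113. With a replicate block, which the check of pairing does not back, 1017, 1239, 1059 and 280 probe sets and 10, 6, 3 and 1 members were called. The member gained was 1428289_at of Klf9 with rosiglitazone (adjusted p = 0.0455). Intensities near the array maximum limit what the bright metallothionein sets can show.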
